A study of Mus musculus with 6 samples.

Results

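The guanylate-binding proteins are large interferon-induced GTPases, and the 8 members described here are the genes Gbp2 to Gbp9, chosen by symbol from the 22488 genes of each deposited table. All 8 were found in every table and all 8 passed the filter on low counts. Their counts came from whole livers of wild-type male C57BL/6 mice aged 6 to 8 weeks that had fasted for 16 h. The control group (n = 3) was given 200 µl of HBSS, a balanced salt buffer, and the LPS group (n = 3) 6 mg/kg of lipopolysaccharide, a bacterial endotoxin, in both cases into the abdominal cavity. Another label field of the control samples reads as untreated, and the sources used here do not say how long after injection the livers were taken. Per its title, the series asks how LPS alters lipid handling in the liver, and the comparison below asks how the same exposure altered this family.

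Guanylate-binding proteins belong to the dynamin superfamily and are transcribed mainly in response to interferons, in part through the interferon regulatory factors. The proteins gather on bacteria and on vacuoles that hold pathogens, where they expose microbial ligands and help caspase-11, encoded by Casp4, to detect cytosolic LPS. In mouse the genes lie in a pair of clusters, on chromosomes 3 and 5, and mice without the chromosome 3 cluster are known to be less sensitive to endotoxin shock. Liver is made mostly of hepatocytes, and the family is also expressed in macrophages and endothelial cells, so whole-liver RNA does not tell which cells carry it.

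The libraries held 11488525 to 20282004 counted reads. The 8 hepatocyte markers of a fixed list (Alb, Apoa1, Apob, Ttr, Ass1, Cps1, Serpina1c and Hnf4a) were detected in every library, with a summed level of 108977 to 122407 CPM (counts as a share of the scaled library total) in control and 67003 to 92004 CPM in LPS livers. Values below are TMM-scaled CPM, and group values are means ± SD over 3 libraries. A positive log2 fold change means a higher level in LPS livers, SE is its standard error, and adjusted p values are from edgeR's quasi-likelihood test with Benjamini-Hochberg adjustment over all 12078 genes tested. A gene is said to have risen or fallen where its adjusted p was under 0.05. A gene with very few reads in either group passes the filter on low counts only through the other. For such a gene only a single direction can be called. Whether each library is a different mouse is not said outside the labels' grouping, so the p values reflect only how these 6 samples vary, which may be technical.

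The promoters of the chromosome 3 members are shown first, because interferon acts on these genes through short elements near the start site. A table of RefSeq promoter windows (GRCm38.p6, 250 bases before to 50 after each start) held windows for 4 of the 8 members, Gbp2, Gbp3, Gbp5 and Gbp7. It held none for Gbp4, Gbp6, Gbp8 and Gbp9. The 170 bases before the start site are printed 5′ to 3′ on the plus strand, on which all these genes lie. They cover chr3:142620493-142620662 for Gbp2, chr3:142559874-142560043 for the upstream of the 2 Gbp3 starts, chr3:142496764-142496933 for Gbp5 and chr3:142530166-142530335 for Gbp7. Capitals mark 3 motifs searched on both strands. They are the core of the interferon-stimulated response element (ISRE: GAAA, 2 bases of any kind, GAAA), the core of the gamma-activated site (GAS: TTCNNNGAA, the same on both strands) and an NF-kB motif (GGGA, any base, TTTCC).
Gbp2: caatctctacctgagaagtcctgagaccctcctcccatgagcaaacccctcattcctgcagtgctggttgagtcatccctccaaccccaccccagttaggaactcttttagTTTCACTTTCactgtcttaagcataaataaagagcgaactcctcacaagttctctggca
Gbp3: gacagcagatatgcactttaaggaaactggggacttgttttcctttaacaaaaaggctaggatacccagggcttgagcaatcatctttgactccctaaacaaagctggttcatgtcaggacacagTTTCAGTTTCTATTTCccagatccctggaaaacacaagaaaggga
Gbp5: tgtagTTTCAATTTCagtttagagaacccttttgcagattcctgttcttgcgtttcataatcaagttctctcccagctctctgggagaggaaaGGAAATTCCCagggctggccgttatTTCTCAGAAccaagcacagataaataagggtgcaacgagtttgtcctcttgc
Gbp7: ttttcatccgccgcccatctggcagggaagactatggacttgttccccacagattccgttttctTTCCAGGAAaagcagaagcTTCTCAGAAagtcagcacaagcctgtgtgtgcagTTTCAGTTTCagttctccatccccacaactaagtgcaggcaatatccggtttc
An ISRE core was found, on the minus strand, in a window of each of these 4 members. It began 59 bases before the start site in Gbp2, 53 in Gbp7 and 165 in Gbp5. In the minus-strand match the letters read TTTC, 2 bases of any kind, TTTC. Gbp3 had 2 overlapping cores, beginning at 45 and 39 bases, and its second window held none. The start sites of both Gbp3 windows lie inside the gene span, which begins at 142560016, so these distances depend on the start used. Of all 32851 promoter windows in the table, 3.44% held an ISRE core. GAS cores, held by 8.3% of all windows, occurred at 106 and 87 bases before the start in Gbp7 and at 245 (outside the printed stretch) and 52 in Gbp5, and the NF-kB motif, held by 0.411%, occurred at 77 bases in Gbp5. A letter match is a description and does not show binding.

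**Figure D1:**
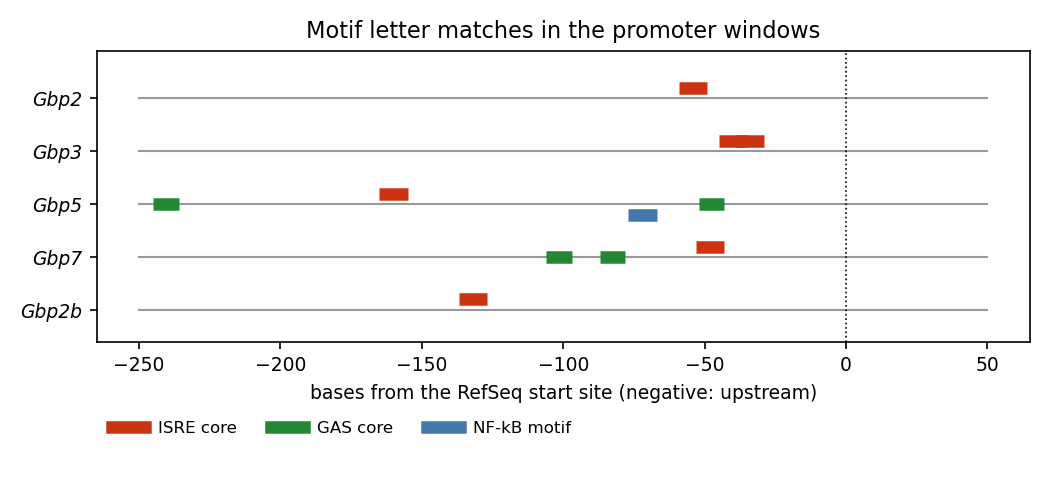
Position of motif letter matches in the promoter windows of Gbp2, Gbp3 (upstream start), Gbp5, Gbp7 and the neighbouring gene Gbp2b, drawn against distance from the RefSeq start site in bases. Red blocks are ISRE cores, green blocks GAS cores and the blue block the NF-kB motif; all 5 windows hold an ISRE core, and GAS cores lie in the windows of Gbp5 and Gbp7.

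All 8 members rose in LPS livers and 0 fell. In edgeR, 0 members were lower at an unadjusted p under 0.05, and DESeq2 also called 8 higher and 0 lower. Of all genes tested, 31.3% were higher and 31.0% lower at the same threshold, so a rise alone was common. The size of the rise was not: 7 of the 8 members had a log2 fold change of at least 3, a size reached by 3.13% of genes tested. Of the members, 5 were among the 200 largest rises. Both counts lie close to their limits, with Gbp7 at 3.08 and Gbp4 at rank 196. Without control replicate 2, and likewise without LPS replicate 1, Gbp7 had 2.95, under the first limit. The median log2 fold change was 4.70 over the members and 0.01 over all genes tested. The summed level of the family went from 28.0 ± 0.639 to 1262 ± 191 CPM, a ratio of 45.2. In bulk RNA, a change in the number of cells of a type and a change in RNA per cell cannot be told apart. Each member had all 3 LPS libraries above all 3 control libraries, which held for 34.0% of genes tested. In 33.4% all LPS libraries were below, so the groups did not overlap in 67.4%.

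**Figure D2:**
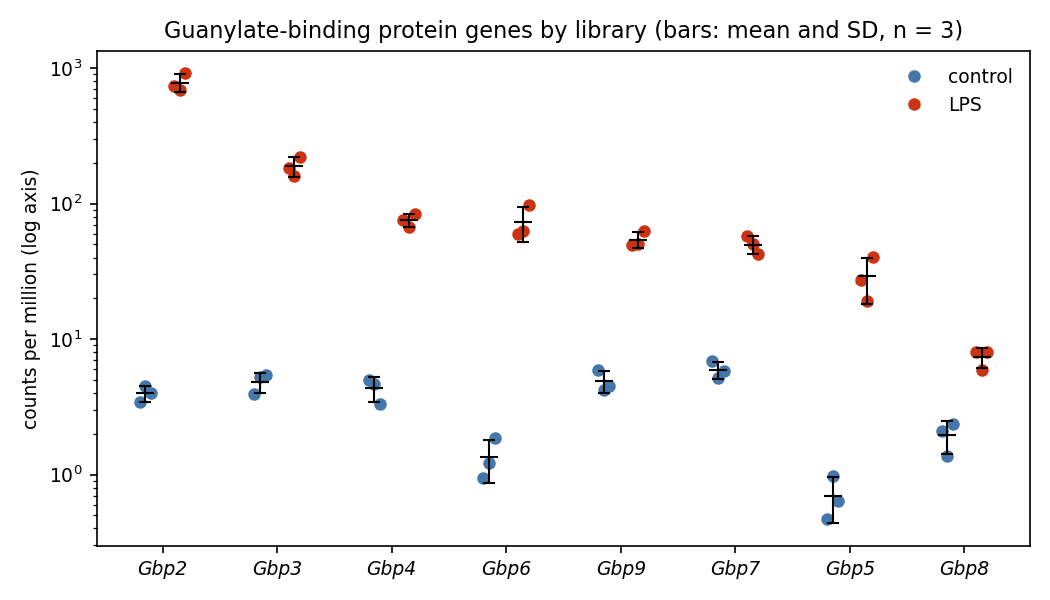
Level of each member in each library, in TMM-scaled CPM on a log axis, with control livers in blue, LPS livers in red and black bars for mean and SD (n = 3). Control values run from 0.468 to 6.86 CPM and LPS values from 5.91 to 918 CPM, and in no member do the groups overlap.

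Gbp2, a lipid-anchored member that coats pathogen vacuoles, lies on chromosome 3 (142620663 to 142638008, GRCm38, plus strand). It had 44, 93 and 62 reads in control replicates 1 to 3 and 8725, 9807 and 12877 in LPS replicates 1 to 3. Scaled, these were 3.43, 4.52 and 3.98 CPM against 744, 690 and 918 CPM. The lowest LPS liver was far above every control liver, and the LPS livers lay within 1.33-fold of each other. The log2 fold change was 7.61 (SE 0.20, adjusted p = 7.41e-12), the largest of the family and rank 35 among all genes tested.

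Gbp3 (chromosome 3, 142560016 to 142573213), is the member nearest to Gbp7 in coding sequence. It measured 3.90, 5.21 and 5.39 CPM in control and 185, 160 and 222 CPM in LPS livers. Its log2 fold change was 5.27 (SE 0.18, adjusted p = 6.34e-11).

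Gbp5 (chromosome 3, 142496934 to 142522344), a lipid-anchored member linked to inflammasome activation, had the lowest level per length in control livers, with 6, 20 and 10 reads. At these reads it passed the filter on low counts only through the LPS livers, so only a rise could be called. Without that filter its log2 fold change was 5.26. LPS livers held 322, 272 and 567 reads, or 27.5, 19.1 and 40.4 CPM, against 0.468, 0.973 and 0.641 CPM in control. The groups were far apart, yet within each group the highest library was over the lowest by 2.08-fold in control and 2.11-fold in LPS, the widest spread of the 8 members in both. The log2 fold change was 5.31 (SE 0.34, adjusted p = 1.30e-08).

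Gbp7 (chromosome 3, 142530336 to 142550151), known for a role in oxidative and autophagic defence, rose least of the chromosome 3 members. Control livers measured 6.86, 5.16 and 5.84 CPM and LPS livers 57.5, 50.1 and 42.1 CPM. Its log2 fold change was 3.08 (SE 0.17, adjusted p = 3.13e-09). The other 7 members were highest in LPS replicate 3, while Gbp7 was lowest there; with library totals as the only scaling, 5 members were highest in that library.

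On chromosome 5, Gbp6 (105270702 to 105295871, minus strand) measured 0.936, 1.22 and 1.86 CPM in control and 59.4, 63.0 and 97.4 CPM in LPS livers. Its log2 fold change was 5.76 (SE 0.26, adjusted p = 6.19e-10). The value is uncertain, because the coding sequence of Gbp6 was 98.4% identical to that of Gbp10, a gene of the same cluster. In GENCODE M21, 64.5% of the distinct stretches of 100 bases in Gbp6 transcripts also occurred in another gene, most often in Gm43302, a gene model that overlaps both. Gm43302 had 0, 2 and 1 reads in control and 13, 10 and 12 in LPS livers. Gbp10 itself went from 6, 9 and 7 reads to 192, 265 and 491. With the counts of Gbp6 and Gbp10 added together, an alternative chosen after seeing the data, the log2 fold change was 5.74 (SE 0.26).

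Gbp4 (105115767 to 105139586, minus strand) measured 4.99, 4.67 and 3.33 CPM in control and 75.1, 67.6 and 84.3 CPM in LPS livers. The LPS livers lay within 1.25-fold of each other, the narrowest LPS spread of the 8 members. Its log2 fold change was 4.13 (SE 0.17, adjusted p = 3.11e-10).

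Gbp9 (105076464 to 105110357, minus strand), which is recruited to parasite vacuoles, measured 5.93, 4.23 and 4.49 CPM in control and 49.5, 50.6 and 62.7 CPM in LPS livers. The log2 fold change was 3.49 (SE 0.17, adjusted p = 1.20e-09).

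Gbp8 (105012513 to 105053609, minus strand) changed least. It had 27, 28 and 37 reads in control and 94, 84 and 113 in LPS livers, or 2.11, 1.36 and 2.37 against 8.02, 5.91 and 8.06 CPM. The groups did not overlap, and the log2 fold change was 1.92 (SE 0.31, adjusted p = 9.53e-05), rank 750 among genes tested. Of its 100-base stretches 4.39% occurred in another gene, and at 50 bases 18.1%, most often in Gbp11, a gene of the same family.

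**Figure D3:**
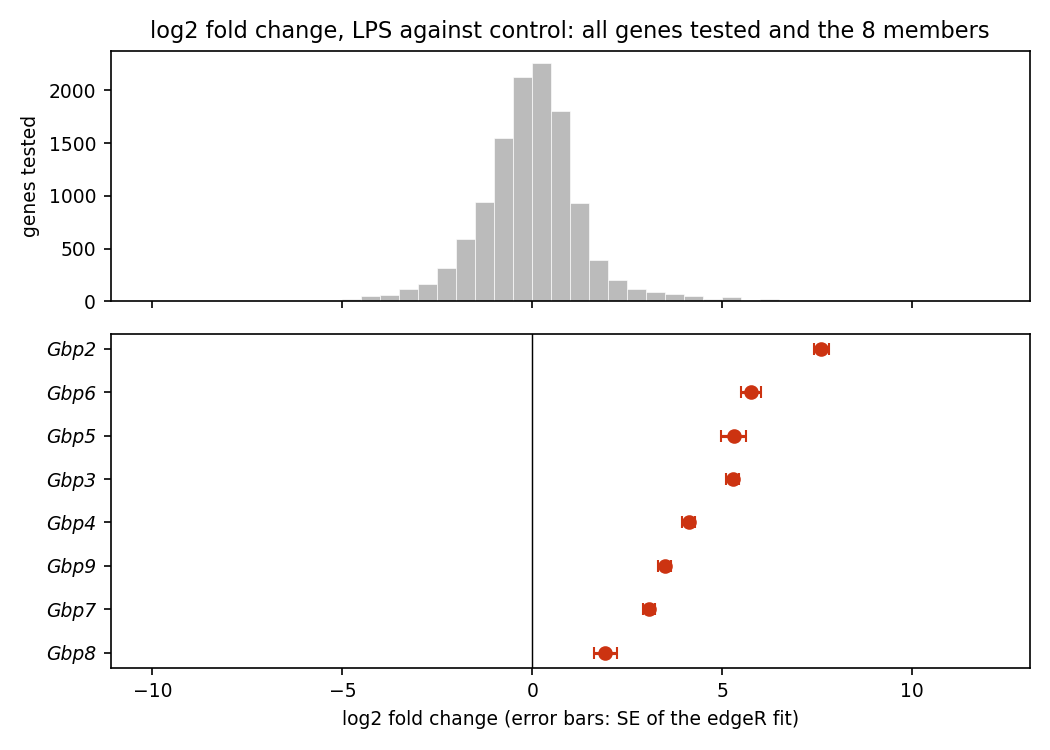
Upper panel: number of tested genes by log2 fold change of LPS against control, in steps of 0.5. Lower panel: the 8 members with the SE of the edgeR fit. The members run from 1.92 for Gbp8 to 7.61 for Gbp2, on the right of a distribution whose median is 0.01.

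The chromosome 3 members had a median log2 fold change of 5.29 (range 3.08 to 7.61) and the chromosome 5 members one of 3.81 (range 1.92 to 5.76). The ranges overlapped and the difference between the clusters was not tested. The chromosome 5 members resembled each other closely in coding sequence, with 92.9% identity between Gbp4 and Gbp8 and 90.6% between Gbp4 and Gbp6, and yet ran from the smallest rise of the family to the second place after Gbp2. On chromosome 3 identity was lower, with 78.3% between Gbp3 and Gbp7, whose log2 fold changes were 5.27 and 3.08, and 71.3% between Gbp2 and Gbp5. Apart from Gbp6, the share of 100-base stretches found in another gene ran from 0 in Gbp2 to 10.01% in Gbp7, the latter mostly shared with the overlapping gene model Gm43802. The sources used here do not say how the authors counted reads shared by several genes.

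Per length of gene, the order of the members differed between the groups. Levels are CPM per kilobase of annotated exons. In control livers the order was Gbp2 (1.58 ± 0.217), Gbp3 (1.48 ± 0.249), Gbp7 (1.06 ± 0.153), Gbp9 (0.944 ± 0.176), Gbp4 (0.578 ± 0.117), Gbp8 (0.565 ± 0.152), Gbp6 (0.225 ± 0.0796) and Gbp5 (0.105 ± 0.0387). The libraries of the neighbours Gbp2 and Gbp3, Gbp3 and Gbp7, Gbp7 and Gbp9, and Gbp4 and Gbp8 overlapped between libraries. Gbp7 was nevertheless above Gbp9 in each of the 3 control libraries, whereas the other 3 pairs changed order from library to library and did not differ beyond their spread. In LPS livers Gbp2 stood at 312 ± 47.4, above Gbp3 at 57.8 ± 9.44, with no overlap. Then came Gbp6 (12.3 ± 3.52), Gbp9 (10.5 ± 1.42), Gbp4 (10.1 ± 1.12) and Gbp7 (8.89 ± 1.37), each overlapping its neighbour, although Gbp6 was above Gbp9 in each LPS library, and below them Gbp5 (4.37 ± 1.62) and Gbp8 (2.13 ± 0.357). Gbp6 moved from rank 7 to rank 3 and Gbp7 from rank 3 to rank 6, with the limits on shared sequence given above for both. Without LPS replicate 3, Gbp7 stood above Gbp4 in LPS livers.

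The family was thus mixed in control livers and made up mainly of Gbp2 in LPS livers. Gbp2 held 21.2%, 27.7% and 23.7% of the summed level per length in control replicates 1 to 3 and 74.2%, 74.9% and 74.7% in LPS replicates 1 to 3. Gbp3 held 22.6% ± 3.49 in control and 13.8% ± 0.384 in LPS livers, although its own level rose. Gbp7 went from 16.2% ± 2.51 to 2.18% ± 0.562, Gbp9 from 14.5% ± 2.91 to 2.52% ± 0.138, Gbp4 from 8.87% ± 1.95 to 2.43% ± 0.111 and Gbp8 from 8.64% ± 2.24 to 0.511% ± 0.0640. The shares of these 6 genes did not overlap between the groups. Those of Gbp5 (1.60% ± 0.595 and 1.02% ± 0.230) and Gbp6 (3.42% ± 1.14 and 2.91% ± 0.422) did. An exact 2-sided permutation test of each share gave p = 0.1 for each of the 6 genes, the smallest that 3 against 3 libraries allow (adjusted over the 8 members, p = 0.133), and 0.2 for Gbp5 and 0.7 for Gbp6. The test therefore could not pass 0.05.

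**Figure D4:**
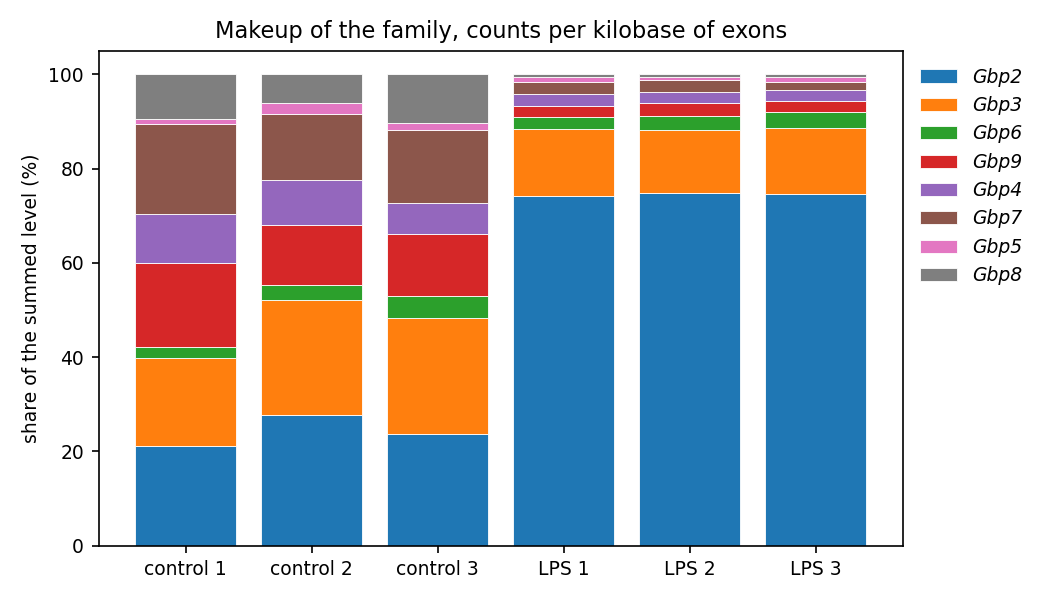
Share of each member in the summed level of the family, in percent of counts per kilobase of exons, 1 bar per library. Gbp2 fills 21.2% to 27.7% of the bar in control livers and 74.2% to 74.9% in LPS livers.

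Other genes of the family outside the 8 members were looked at for comparison. Gbp10 rose (0.452 ± 0.0152 to 23.3 ± 10.2 CPM, log2 fold change 5.67, SE 0.37, adjusted p = 1.55e-08), with the reservation on shared reads given above. Gbp2b, once called Gbp1, lies between Gbp3 and Gbp2 on chromosome 3 (142594816 to 142619179), and its coding sequence is 82.5% identical to that of Gbp2. It had 10, 34 and 8 reads in control and 6, 7 and 8 in LPS livers and did not pass the filter on low counts. Without that filter its log2 fold change was -0.95 (SE 0.75, adjusted p = 0.308), so no change was detectable at this depth. Its control libraries ran from 0.513 to 1.65 CPM and overlapped those of LPS livers at 0.492 to 0.570 CPM. No 100-base stretch of Gbp2 transcripts occurred in another gene (0%), and 2.03% of its 50-base stretches did, in Gbp2b. The 170 bases before the start of Gbp2b (chr3:142594677-142594846) are shown because this neighbour did not pass the test beside the family's largest rise.
Gbp2b: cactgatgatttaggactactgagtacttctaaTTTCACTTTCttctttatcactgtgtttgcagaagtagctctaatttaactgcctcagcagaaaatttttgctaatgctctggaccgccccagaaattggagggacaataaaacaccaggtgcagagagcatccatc
It holds the same 10 ISRE letters as Gbp2, TTTCACTTTC, beginning 137 bases before the start site of its window where those of Gbp2 begin at 59. That start site of Gbp2b lies inside the gene span given above, which begins at 142594816, so its distance depends on the start used. No GAS core or NF-kB motif was found in the windows of Gbp2b or Gbp2, which says only that these letters are not there. Gbp11 was not analysed here.

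Genes that act upstream of the family rose in part, beside 31.3% higher and 31.0% lower of all genes tested. Of 15 genes of interferon-gamma signalling 12 were tested, of which 6 rose and 0 fell, with 0 lower at an unadjusted p under 0.05 in edgeR and 0 lower in DESeq2 (median log2 fold change 0.75). The ligand Ifng had 0, 2 and 0 reads in control and 2 reads in each LPS liver, too few to test. For the receptor chain Ifngr1 the fit gave 0.29 (SE 0.16, adjusted p = 0.118) on the log2 scale, and for the kinase Jak1, the most abundant gene of the list, 0.25 (SE 0.12, adjusted p = 0.0787). The transcription factor Irf1, which acts on Gbp promoters, rose with a smaller log2 fold change than any member, from 14.7 ± 0.710 to 38.2 ± 7.30 CPM (1.38, SE 0.16). Irf8, a partner of Irf1 in myeloid cells, rose with a log2 fold change of 2.21. The inhibitors Socs1 (7.50, SE 0.23), which blocks JAK kinases, and Ptpn2 (3.11, SE 0.14), a phosphatase of the pathway, rose, and so did Batf2, named after its value was seen (4.12, SE 0.75), with 0, 10 and 0 reads in control livers.

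Of 12 genes of type I interferon signalling 9 were tested, of which 6 rose and 3 fell, with a median of 0.67. The shares over all genes tested were again 31.3% higher and 31.0% lower. Irf7, the amplifier of type I interferon production, rose from 32.8 ± 6.04 to 353 ± 43.6 CPM (3.43, SE 0.17), and Usp18, which restrains the receptor, rose too (2.96, SE 0.19). Irf3, which starts interferon production after LPS sensing, fell from 52.5 ± 11.3 to 15.5 ± 2.11 CPM (-1.75, SE 0.17). The other 2 that fell, named after their values were seen, were the receptor chain Ifnar2 (-0.49) and the kinase Tyk2 (-0.56). The other receptor chain, Ifnar1, rose (0.60), as did Stat2 (0.97), Irf9 (0.67) and Ticam1 (0.90), all named after their values were seen. Ifnb1 had 2 reads in all, both in LPS replicate 1, and Ifna4 had 0 reads in all 6 libraries.

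Genes that work with or below the family were called as follows, beside the 31.3% of all genes tested that were higher and 31.0% that were lower. Of 10 tested immunity-related GTPases, small relatives that load onto the same vacuoles, 7 rose and 1 fell, with a median of 2.42. Irgm1 (2.87, SE 0.18), Igtp (2.59, SE 0.20) and Iigp1, the most abundant (220 ± 32.3 to 1054 ± 213 CPM, 2.26, SE 0.17), were among the risers, and F830016B08Rik, named after its value was seen, fell (-1.25). Irgb10 was not analysed here. Of 14 genes of the inflammasomes 5 rose and 0 fell, with 0 lower at an unadjusted p under 0.05 in edgeR and 0 lower in DESeq2 (median 0.46). Casp4, the cytosolic LPS sensor, rose from 1.65 ± 0.461 to 12.3 ± 1.49 CPM (2.92, SE 0.27), Gsdmd, the pore-forming protein it cleaves, from 27.1 ± 4.09 to 66.6 ± 12.03 CPM (1.30, SE 0.16), and Casp8 had 0.68 (SE 0.13). The 5 risers make a share near that of all genes tested. Il1b and Nlrp3, named after their values were seen, were the other risers with 0.95 and 1.81, and the groups of Nlrp3 overlapped (2, 4 and 16 reads against 12, 28 and 26). Ninj1, which ruptures the plasma membrane and was the most abundant of the list, had -0.31 (SE 0.15, adjusted p = 0.0800). It was called lower when LPS replicate 3 was left out (-0.47), with library totals (-0.39) and without the filter (-0.34).

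Factors that place or anchor the proteins went both ways, as did all genes tested (31.3% higher and 31.0% lower). Of 14 genes of LC3 conjugation and ubiquitin tagging, which direct the GTPases to vacuoles, 4 rose and 7 fell, with a median of -0.22. Gabarapl1 (-2.12, SE 0.13) and Map1lc3a (-1.48, SE 0.12) fell, as did the abundant receptor Sqstm1 (-0.37, SE 0.13), whereas the ubiquitin ligase Traf6 rose (1.40, SE 0.13). Sqstm1 no longer passed when control replicate 3 was left out (-0.31) or LPS replicate 2 (-0.28). Gbp2 and Gbp5 carry a prenyl anchor. Of 9 prenylation genes, of which Chm, Rabggta and Rabggtb serve Rab proteins, 4 rose and 2 fell, with a median of 0.08. The transferase genes Fnta (0.08), Pggt1b (0.01) and Fntb (-0.95), named after their values were seen, did not pass the test. Their adjusted p values in edgeR were 0.599, 0.986 and 0.0555, and Fntb was called lower without the filter (-0.98). The risers included Chm (0.38, adjusted p = 0.0491) and Rabggtb (0.55), both named after their values were seen. The protease Zmpste24 (0.87, SE 0.13) and Rce1 (0.94, SE 0.22), which cut the tail of prenylated proteins, rose, and Rabggta, a subunit of the enzyme that prenylates Rab proteins, fell (-0.67, SE 0.16). The other faller was the methyltransferase Icmt (-0.36), named after its value was seen. Without control replicate 3, and likewise without LPS replicate 3, 1 gene fell.

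Of 9 other large GTPases of the dynamin superfamily 2 rose and 4 fell, with a median of -0.20. Shares over all genes tested were 31.3% higher and 31.0% lower. The antiviral Mx1, itself interferon-induced, rose from 1.86 ± 0.307 to 75.1 ± 21.1 CPM (5.35, SE 0.23), and Gvin1, named after its value was seen, was the other riser (2.51). Atl3, an atlastin that shapes the endoplasmic reticulum, fell (-1.93, SE 0.12), as did Mfn2, which fuses mitochondria (-1.41, SE 0.14). The other 2 that fell were Opa1 (-0.88) and Mfn1 (-0.37), both named after their values were seen. For Atl2, the most abundant, the fit gave 0.11 (SE 0.12, adjusted p = 0.444).

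**Figure D5:**
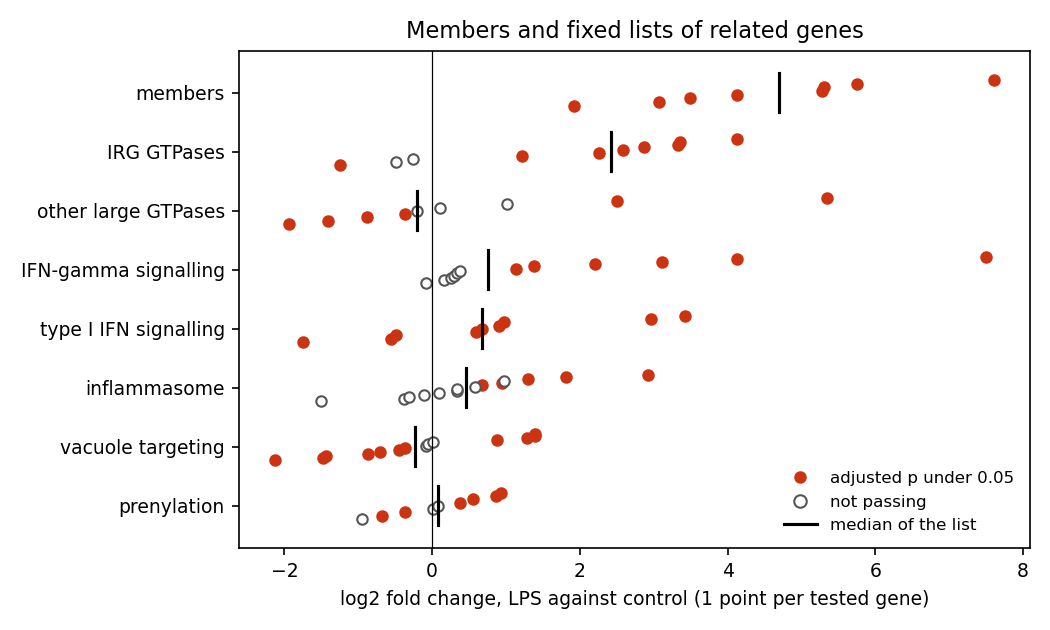
Log2 fold change of LPS against control for each tested gene of the family and of 7 fixed lists, with filled points for an adjusted p under 0.05 and a black line at each median. The members' median of 4.70 lies above those of these 7 lists, which run from -0.22 for vacuole targeting to 2.42 for the immunity-related GTPases. Not drawn are the neutrophil markers, with a median of 5.25, and Gbp10, with 5.67. The differences between lists were not tested.

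By distance over the 6 libraries, the genes outside the family nearest to the members' median profile were Zbp1, Serpina3n, Tnfaip3, Spink1 and Npy. Likeness was the Euclidean distance over the 6 libraries between log2 CPM values, each less its own control mean. The profile ran from -0.03 to 0.02 in control and from 4.26 to 4.88 in LPS livers, so nearness reflects mostly a rise of like size. Among LPS livers the profile was highest in replicate 3, as were Serpina3n and Npy. Zbp1 was highest in replicate 1, and Tnfaip3 and Spink1 in replicate 2. The distances were 0.48 for Zbp1, a nucleic acid sensor, 0.65 for Serpina3n, an acute phase protease inhibitor, and 0.74 for Tnfaip3, an inhibitor of NF-kB signalling. Zbp1 measured 5.93, 5.84 and 6.67 CPM in control and 196, 122 and 153 CPM in LPS livers. Spink1 (0.76) and Npy (0.80) had 0 reads in the control group and 104 and 168 in the LPS group, so their nearness rests on the prior count of 2 used for log2 CPM.

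Markers of several cell types moved in the same libraries, in which 31.3% of all genes tested were higher and 31.0% lower. Of 8 neutrophil markers 7 were tested and all 7 rose, their summed level going from 4.21 to 7.83 CPM in control to 198 to 239 CPM in LPS livers. Several of them passed the filter on low counts only through the LPS livers, so only a rise could be called. Among these were Ngp (2, 4 and 2 control reads), Mmp8 (2, 2 and 0) and Cxcr2 (2, 2 and 2). Of 8 Kupffer cell markers 7 fell and 1, Marco, rose, and the sum went from 280 to 318 CPM down to 73.1 to 120 CPM. Of 6 tested monocyte markers 4 rose and 1 fell, with sums of 41.4 to 55.3 and 70.2 to 85.5 CPM. The risers Ly6c2 (2, 6 and 10 control reads), Itgam (2, 18 and 4) and Chil3 (4, 10 and 2) likewise passed the filter only through the LPS livers. Of 6 tested T and NK cell markers 3 rose and 0 fell, with 0 lower at an unadjusted p under 0.05 in edgeR and 0 lower in DESeq2, and the sums were 3.02 to 5.15 and 12.4 to 15.9 CPM. The risers, named after their values were seen, were Gzma (mean 0.349 to 2.37 CPM), Gzmb (0.203 to 5.34 CPM) and Prf1 (0.162 to 1.01 CPM). Their control reads were 6, 4 and 6 for Gzma, 0, 2 and 8 for Gzmb and 0, 10 and 0 for Prf1. These 3 genes also passed the filter only through the LPS livers, so a fall could not have been called for them. Cd3d, Cd4 and Nkg7 did not pass the test, and the remaining markers of this list were too low to test. Of 7 sinusoidal endothelial markers 5 fell and 1 rose. Of 5 B cell markers 2 fell in edgeR and 1 in DESeq2, and 0 fell without control replicate 2 or without LPS replicate 3. Of 6 stellate cell markers 3 fell, and of 8 hepatocyte markers 6 fell. The B cell, stellate cell and hepatocyte lists held 0 risers in edgeR, 0 at an unadjusted p under 0.05 and 0 in DESeq2. The part of these cell types in the rise of the members was not tested.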

How the data were processed

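Liver RNA of 3 control and 3 LPS samples was extracted with Trizol, per the labels' protocols. The authors deposited raw counts per gene in fields of fixed width, with no normalization. The submitters' processing notes name bcl2fastq 2.0, HISAT2, StringTie, DESeq2, limma and the build mm10 without saying which made the table. Counting tool, annotation and strand setting: not given in the sources used here. Genes were named from RefSeq (GRCm38.p6), 20722 of them by Entrez identifier. The members and gene lists were chosen with earlier results of these data known.

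LPS was compared with control in R 4.3.3 with edgeR 4.0.16 (TMM scaling, filterByExpr with a minimum count of 10 and a minimum total of 15, quasi-likelihood F test, 2-sided, threshold 0.05), after testing on simulated data. The SE of a fold change is its size divided by the root of F. Alternatives were DESeq2 1.42.0, its size factors, library totals, no filter, a replicate block and each library left out. Exon lengths, transcripts and overlaps came from GENCODE M21, and promoters from a RefSeq table. Coding sequences were aligned globally with Biopython 1.88. In each pathway list, the text names the most abundant gene, the 3 whose adjusted p is smallest, a few genes fixed by name, and the 5 nearest to the members' profile. Irgb10 was among those fixed by name. Not every gene that the rule takes is reported here. Total counts set the precision, and in each group every pair of libraries differed beyond it (chi-square per degree of freedom 11.6 to 31.2). The titles call the libraries repeat experiments and use the same numbers in control and LPS, which are given here as replicates. These numbers were not taken to pair samples, since the labels do not say that they do.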

Additional observations from a re-analysis of the deposited data

How the results depend on the processing

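All 8 members were called higher and 0 lower under each alternative: DESeq2 size factors, library totals, DESeq2, no filter, the replicate block and each of the 6 libraries left out. The largest adjusted p of a member in any of these fits was 7.01e-04, for Gbp8, whose log2 fold change ran from 1.67 to 2.08. That of Gbp2 ran from 7.49 to 7.69, that of Gbp5 from 5.002 to 5.637 and that of Gbp6 from 5.51 to 6.02. With the replicate block 8 members were higher, and over all genes 3780 were higher and 3766 lower. With group means removed, same-numbered control and LPS libraries had correlations of -7.45e-04, 0.104 and 0.0352. Those of different numbers ran from -0.121 to 0.0741, so replicate 2 lay above that range. These values do not settle whether the numbers mark pairs. Without a library, 3372 to 3635 genes were higher and 3510 to 3615 lower.

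Among the immunity-related GTPases 2 fell, not 1, with library totals, with DESeq2, without the filter and with the replicate block, and 1 to 2 with a library left out. Among inflammasome genes 1 fell, not 0, with library totals and without the filter, and 0 to 1 with a library left out, while 4 to 5 rose. Of the prenylation genes 3 rose, not 4, with DESeq2 size factors, library totals, DESeq2, no filter and the replicate block, and 3 to 4 with a library left out. There 1 to 2 fell, and 3 fell with library totals and without the filter. Of the B cell markers 1 fell, not 2, with DESeq2, without the filter and with the replicate block, and 0 to 2 with a library left out. By the longest transcript in place of all exons, the share of Gbp4 differed by -9.10 percentage points, against -6.44. That choice exchanged 2 members in each order: Gbp3 and Gbp2 in control, Gbp4 and Gbp9 in LPS livers. With a library left out, 0 to 2 members changed rank in either group. The difference in the share of Gbp6, -0.51 percentage points, was 0.12 without control replicate 3 and ran from -0.99 to 0.12 with a library left out. The causes of these changes were not tested. At 36 reads over the control group for Gbp5 and 66 for Gbp6, counting error limits the size of their rises.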
